A study of Mus musculus with 24 samples.

Results

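The corticotropin-releasing hormone (CRH) system was described in the prefrontal cortex (PFC) of mice as 6 genes, Crh, Crhr1, Crhr2, Crhbp, Adcyap1 and Adcyap1r1, taken by symbol from the table of normalized counts. Of these 6 genes, 5 had a row among the 14074 genes of the table. No row had the symbol Crhr2, the second CRH receptor, which was not analysed here. RNA-seq of polyadenylated RNA was read from 24 adult male C57BL/6 mice, 1 library each, in 6 groups of 4. Control mice were intact and were housed singly for some days before the experiment. Stressed mice went through 30 days of chronic social defeat by aggressive CD1 males and were divided by clustering of their behaviour into a passive coping (PS) and an active coping (AS) phenotype. Within each phenotype, 4 mice received physiological saline and 4 received dexamethasone (DEX), a synthetic agonist of the glucocorticoid receptor, at 2 mg/kg, and tissue was taken 6 h later. All 6 groups thus carried an injection, and DEX was given once, after the last defeat session.

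CRH is a neuropeptide best known as the hypothalamic starter of the pituitary and adrenal stress response, and in cortex it is made locally, mainly by GABAergic interneurons. It acts on the Gs-coupled receptor CRHR1, found in cortex on pyramidal cells among others, while the secreted CRH-binding protein holds the peptide away from its receptor. PACAP, the product of Adcyap1, signals through the related receptor PAC1, the product of Adcyap1r1, and both receptors raise cAMP. Glucocorticoids lower Crh transcription in the hypothalamus as part of negative feedback. The comparisons asked how the genes of the system stood in the PFC after stress and after DEX.

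Libraries held 21121869 to 59439645 reads on genes (median 24420129), and the AS groups were deeper than the control groups, with group medians of 34242531.5 and 37876626 reads against 22869703 and 23492571.5. The lowest count of any of the 5 genes was 96 reads, for Crh, and the highest was 10898 reads, for Adcyap1r1. Fkbp5, a glucocorticoid-induced chaperone of the glucocorticoid receptor, was higher after DEX by 2.26 on the log2 scale in control mice, 2.00 in PS and 1.91 in AS. Of 13 pyramidal neuron markers 12 had a row, with sums of 162179 to 230517 normalized counts over the 24 libraries, and of 7 choroid plexus markers 2 had a row, with sums of at most 215 normalized counts. Of 12 striatum and septum markers 9 had a row, with sums of 5668 to 8856 normalized counts. Of 7 olfactory bulb markers 6 had a row, with sums of 5939 to 11294 normalized counts. That sum mostly followed Calb1 and Synpr, with means of 881 and 272 normalized counts per kb of exon, where the next marker, Cdhr1, had 89.1. It therefore says little of the other bulb markers. Several of these 6 markers were uneven between libraries. In normalized counts per kilobase of exon, Cdhr1 ran from 12.6 to 612 and Doc2g from 4.10 to 217. Th ran from 2.85 to 361 and Eomes from 0 to 147, while Calb1 (631 to 1084) and Synpr (197 to 443) were more even. The part of dissection in this spread was not tested. In AS mice 2 libraries stood apart in Crhbp or Adcyap1r1, saline mouse 44 and DEX mouse 60, and results that rest on them are given with and without them.

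Per kilobase of annotated exon, Adcyap1r1 was the most abundant of the 5 genes, at 752 ± 84.2 normalized counts per kb (SD, n = 24). Crhr1 followed at 318 ± 70.1, Crhbp at 293 ± 33.0, Adcyap1 at 254 ± 33.0 and Crh at 130 ± 21.4 normalized counts per kb. The ranges over libraries of Crhr1, Crhbp and Adcyap1 overlapped, so that their order is not larger than the spread, whereas every library of Adcyap1r1 (at least 550 per kb) lay above every library of the other 4 genes (at most 422 per kb), and every library of Crh (at most 180.1 per kb) lay below every library of the other 4. In log2 units the standard deviation within groups was 0.26 for Crh, 0.20 for Adcyap1, 0.16 for Crhbp, 0.14 for Adcyap1r1 and 0.13 for Crhr1, so the ligands varied most between mice of one group.

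**Figure D1:**
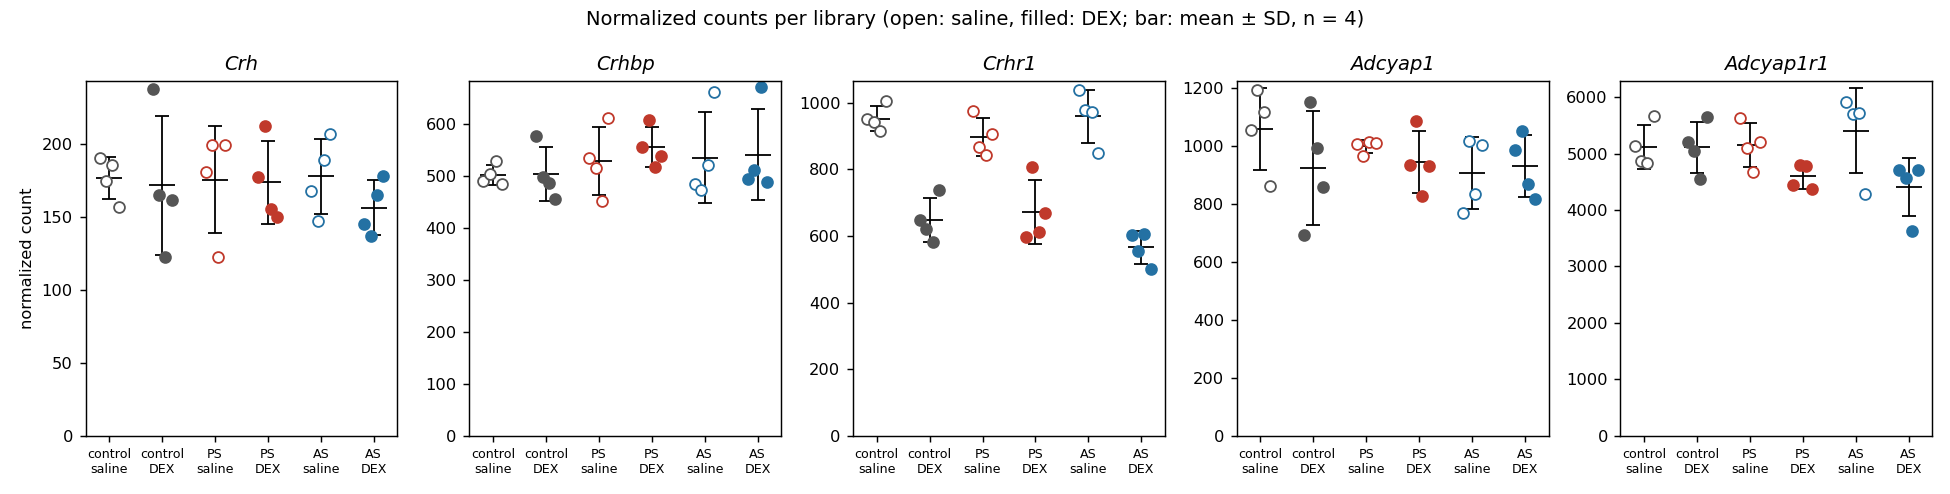
Normalized counts of the 5 genes in each of the 24 libraries (y axis, from 0), by phenotype and treatment (x axis); open circles are saline, filled circles DEX, and bars give mean ± SD of 4 mice. Crhr1 lies between 844 and 1038 in the saline libraries and between 501 and 807 in the DEX libraries, while the groups of Crh, Crhbp and Adcyap1 overlap.

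Crhr1, the receptor through which CRH acts in cortex (chr11:104132855-104175523, plus strand, mm10), was lower after DEX in every phenotype. In control mice the normalized counts were 950, 941, 914 and 1005 after saline (mice 106, 107, 109 and 117) and 648, 620, 583 and 738 after DEX (mice 101, 108, 112 and 122). In PS mice they were 975, 867, 844 and 905 after saline (mice 2, 28, 62 and 68) and 598, 807, 613 and 668 after DEX (mice 6, 34, 52 and 56). In AS mice they were 1038, 978, 971 and 849 after saline (mice 8, 14, 40 and 44) and 602, 556, 606 and 501 after DEX (mice 38, 42, 60 and 72). The saline and DEX libraries did not overlap in any phenotype, where 4.32% of all genes were lower after DEX without overlap in control, 4.57% in PS and 5.02% in AS mice. The highest DEX library, PS mouse 34, was below the lowest saline library, PS mouse 62. Of all genes, 0.249% had all 12 DEX libraries below all 12 saline libraries, and 0.433% had DEX groups lower without overlap in each of the 3 phenotypes. In bulk tissue, fewer cells of a type and less RNA per cell cannot be told apart.

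The fall of Crhr1 passed the test in each phenotype, by limma with Benjamini-Hochberg adjustment over all genes at an adjusted p under 0.1. The log2 fold change was -0.56 (SE 0.09, adjusted p = 0.000339) in control mice, a level 32.2% lower. It was -0.43 (SE 0.09, limma adjusted p = 0.00595) in PS mice and -0.76 (SE 0.09, limma adjusted p = 8.86e-06) in AS mice. Crhr1 was thus among the genes that fell in all 3 phenotypes, which made up 0.576% of those tested. Over the mean of the 3 phenotypes the change was -0.58 (95% interval -0.69 to -0.47, limma adjusted p = 1.75e-08), at rank 122 from the lowest fold change and rank 63 by p among 14074 genes. Each of the 33 or 34 settings tried per comparison kept the call, with the log2 change of PS mice between -0.52 and -0.37 and that of AS mice between -0.85 and -0.70.

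The level of Crhr1 after DEX was 672 ± 95.5 (SD, n = 4) in PS, 647 ± 66.0 in control and 566 ± 49.1 in AS mice, and neighbours in that order overlapped. The change after DEX was larger in AS than in PS by -0.33 on the log2 scale (SE 0.13, 95% interval -0.60 to -0.07), with an unadjusted limma p of 0.0161 that did not pass the adjustment over all genes (adjusted p = 0.9997). With AS saline mouse 44 and AS DEX mouse 60 left out, a choice made after seeing the data, it was -0.42 (limma adjusted p = 0.745). Against control mice the change differed by -0.20 in AS (limma adjusted p = 0.533) and by 0.14 in PS (limma adjusted p = 0.778). A difference in the size of the fall between phenotypes was therefore not shown at this number of mice. After saline, the level was 953 ± 38.1 in control, 898 ± 57.1 in PS and 959 ± 79.2 in AS mice, and the groups overlapped.

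**Figure D2:**
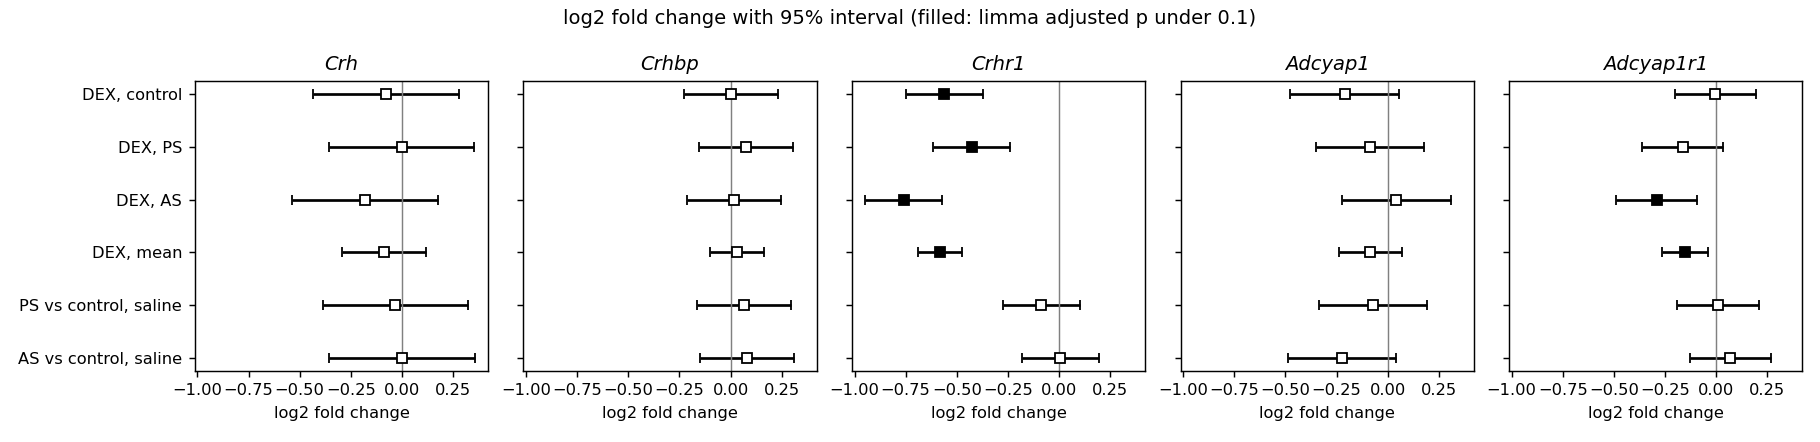
log2 fold change (x axis) of each of the 5 genes with its 95% interval, for DEX against saline in each phenotype and over their mean, and for PS and AS against control after saline (rows); filled squares have a limma adjusted p under 0.1. Filled squares stand in the 4 DEX rows of Crhr1 and in the AS and mean rows of Adcyap1r1.

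Markers of cell types were set beside the fall of Crhr1. Their counts are to be read against all genes, of which 7.46% rose and 8.01% fell over the mean of the phenotypes. Within a phenotype, 6.49% of all genes were called after DEX in control mice and 8.77% in AS mice. Single genes lower after DEX without overlap made up 4.57% in PS and 5.02% in AS mice, and no such share was computed for sums. The summed pyramidal neuron markers ran from 162179 to 226018 normalized counts after saline and from 190408 to 225650 after DEX in control mice, and overlapped between treatments in PS and AS mice too. Over the mean of the phenotypes 1 of the 12 pyramidal markers rose (Bcl11b, of deep layers, 0.44) and 3 fell (Neurod6 -0.27, Rspo1 -0.27 and Cux2 -0.22, all log2). Of 14 interneuron markers 2 rose, among them Lhx6 by 0.28, and none fell. The list medians over the mean of the phenotypes were 0.00 for pyramidal and -0.01 for interneuron markers, against -0.00 for all genes. By phenotype, the pyramidal median after DEX was -0.24 in control mice, where 1 of the 12 fell and none rose, 0.04 in PS mice and 0.05 in AS mice. In control mice the median of these markers was thus lower together with Crhr1, while their mean sum was 214523 normalized counts after DEX against 191854 after saline. That sum mostly follows Camk2a and Slc17a7, at 17507 and 8574 normalized counts per kb, where the next marker, Neurod6, had 1004. It therefore says little of the other pyramidal markers. Of 7 microglia markers 3 fell, with P2ry12 at -0.54, Cx3cr1 at -0.61 and Aif1 at -0.76. The summed level of the 7 did not overlap between treatments in AS mice (8054 to 9041 after saline, 6424 to 7702 after DEX) or in PS mice (7942 to 8374 and 6653 to 7461). In control mice, where Crhr1 fell too, the microglia sums overlapped (7140 to 8251 after saline, 6726 to 8947 after DEX). Their means there were 7568 after saline and 7766 after DEX. Of 8 endothelial and mural markers 2 fell over the mean of the phenotypes (Flt1 -0.45, Acta2 -0.59) and 4 fell in AS mice. Their list median after DEX was -0.61 in AS mice and -0.26 in PS mice but 0.34 in control mice, where none passed the test and the mean sum was 10397 normalized counts after DEX against 8640 after saline. Over the mean of the phenotypes, of the 9 striatum and septum markers 3 rose, among them Ppp1r1b (0.26) and Rgs9 (0.19). Their sums in AS mice were 6627 to 6924 after saline and 7230 to 8856 after DEX. The sums overlapped between treatments in control (6180 to 7286 and 7038 to 8384) and in PS mice (5668 to 6780 and 6694 to 7654). Over the same mean, of 8 astrocyte markers 1 rose (Aldh1l1, 0.28) and 1 fell (Aqp4, -0.36), and of 7 oligodendrocyte lineage markers 1 rose (Mobp, 0.49). That mean joins unlike directions. The mean oligodendrocyte sum was 34735 after saline and 29104 after DEX in control, 28709 and 33782 in PS, and 25501 and 36723 in AS mice. The mean astrocyte sum was 124555 and 137323 in control, 129677 and 117169 in PS, and 133493 and 124815 in AS mice. The ranges of both sums overlapped between treatments in every phenotype. Of 6 olfactory bulb and 2 choroid plexus markers, the most abundant of which were Calb1 and Kcnj13, none passed the test over the mean of the phenotypes. Calb1 rose after DEX in control mice (log2 change 0.30, limma adjusted p = 0.0983). The part of these cell types in the fall of Crhr1, or in that of Adcyap1r1 described next, was not tested.

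Adcyap1r1, which encodes the PACAP receptor PAC1 (chr6:55451978-55501451, plus strand, mm10), was the other receptor of the system and was lower after DEX in AS mice. The normalized counts of AS mice were 5917, 5698, 5722 and 4283 after saline (mice 8, 14, 40 and 44) and 4712, 4568, 3633 and 4706 after DEX (mice 38, 42, 60 and 72). The groups overlapped through saline mouse 44 alone, whose value lay below 3 of the 4 DEX mice. In PS mice the counts were 5632, 5099, 4676 and 5213 after saline (mice 2, 28, 62 and 68) and 4444, 4793, 4786 and 4369 after DEX (mice 6, 34, 52 and 56), with saline mouse 62 inside the DEX range. In control mice they were 5136, 4863, 4825 and 5669 after saline and 5205, 5046, 4552 and 5652 after DEX, in the same mouse order as for Crhr1, and the ranges lay over each other.

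The log2 change of Adcyap1r1 after DEX was -0.29 in AS mice (SE 0.10, limma adjusted p = 0.0774), -0.16 in PS mice (limma adjusted p = 0.515) and -0.00 in control mice (limma adjusted p = 0.995). Over the mean of the phenotypes it was -0.15 (SE 0.06, limma adjusted p = 0.0773). With Crhr1, 2 of the 5 genes were called in AS mice, where 8.77% of all genes were called, and 2 of 5 over the mean of the phenotypes, where 15.5% were called. In control mice 1 of 5 was called against 6.49% of all genes, and in PS mice 1 of 5 against 5.36%. The difference in the change between AS and control mice was -0.29 (95% interval -0.57 to -0.01, limma adjusted p = 0.354) and was not called.

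The call of Adcyap1r1 in AS mice did not hold without some single libraries. It was lost without AS saline mouse 8, 14 or 40 and without AS DEX mouse 42 or 60 (log2 changes of -0.31 to -0.20, limma adjusted p of 0.120 to 0.259), and in a fit of the groups compared alone, where the log2 change stayed at -0.29 (limma adjusted p = 0.270). Without AS saline mouse 44 the log2 change was -0.40 (limma adjusted p = 0.00466), and the difference from control mice was then called (-0.40, limma adjusted p = 0.0784). With mice 44 and 60 both left out, a choice made after seeing the data, the change was -0.31 in AS mice (limma adjusted p = 0.0127), that of Crhr1 was -0.85, and the difference of Adcyap1r1 from control mice was not called (-0.31, limma adjusted p = 0.110). The call over the mean of the phenotypes was lost in 13 of the 24 fits that left out 1 library (limma adjusted p of 0.102 to 0.147), with log2 changes of -0.15 to -0.12.

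The promoters of the 2 receptor genes that were called are shown with that of Adcyap1, the gene of PACAP, so that they can be read against the response elements of cAMP and of glucocorticoids. Each line gives the 250 bases before the RefSeq start on GRCm38.p6, 5′ to 3′, and capitals mark TGACG, the core of the cAMP response element, on the strand shown. The windows are chr11:104132531-104132780, chr6:55451728-55451977 and chr17:93198767-93199016, all on the plus strand.
Crhr1: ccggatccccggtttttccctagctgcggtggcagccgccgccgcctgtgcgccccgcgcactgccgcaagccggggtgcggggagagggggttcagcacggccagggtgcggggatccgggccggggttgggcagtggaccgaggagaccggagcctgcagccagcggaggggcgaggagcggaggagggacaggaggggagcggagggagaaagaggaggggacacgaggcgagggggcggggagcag
Adcyap1r1: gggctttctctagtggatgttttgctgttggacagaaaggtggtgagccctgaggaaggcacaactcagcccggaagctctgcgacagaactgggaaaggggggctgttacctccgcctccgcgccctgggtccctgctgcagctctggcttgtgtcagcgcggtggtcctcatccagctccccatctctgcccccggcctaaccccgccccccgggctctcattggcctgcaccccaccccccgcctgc
Adcyap1: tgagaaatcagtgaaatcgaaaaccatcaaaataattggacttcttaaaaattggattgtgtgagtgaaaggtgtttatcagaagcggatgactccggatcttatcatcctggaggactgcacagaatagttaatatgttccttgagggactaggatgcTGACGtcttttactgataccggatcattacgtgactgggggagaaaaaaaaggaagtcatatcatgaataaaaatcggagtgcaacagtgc
Both strands were searched for TGACGTCA, the full cAMP response element, for its core TGACG, and for TGTTCT, the hexamer of the glucocorticoid response element. Read from 5′ to 3′, the core stood once in the Adcyap1 window shown, at position -91 from its start, and every full element also holds the core. A second RefSeq window of Adcyap1 (chr17:93198918-93199167), not shown, held the same core at position -242 from its own start. None of the 3 motifs stood in the Crhr1 or the Adcyap1r1 window. Among 32851 RefSeq windows of the same length, 17.8% held TGACG, 1.55% held TGACGTCA and 16.1% held TGTTCT. The Crhr1 window had a GC content of 74.8% and the Adcyap1r1 window of 65.6%, against a median of 52.4% over all windows and 39.6% for Adcyap1. These matches are a description of the letters only.

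Crh, the ligand (chr3:19693401-19695396, minus strand, mm10), did not pass the test in any comparison. The normalized counts after saline were 190, 175, 186 and 157 in control, 181, 200, 123 and 200 in PS and 168, 148, 189 and 207 in AS mice. After DEX they were 238, 165, 123 and 161 in control, 178, 213, 155 and 150 in PS and 146, 137, 165 and 178 in AS mice, each in the mouse order given for Crhr1. The 12 saline libraries (123 to 207) lay within the range of the 12 DEX libraries (123 to 238), and the widest group was control DEX, where mouse 101 held the highest and mouse 112 the lowest value of all 24 libraries. The log2 change after DEX over the mean of the phenotypes was -0.09 (95% interval -0.29 to 0.12, limma adjusted p = 0.719), so a fall of the size seen for Crhr1 lay outside the interval. Within a phenotype the intervals were wider, from -0.54 to 0.18 in AS mice.

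Crhbp, which encodes the CRH-binding protein (chr13:95431371-95444924, minus strand, mm10), likewise did not pass the test in any comparison. Its normalized counts after saline were 490, 504, 530 and 485 in control, 535, 516, 453 and 612 in PS and 485, 473, 521 and 663 in AS mice. After DEX they were 577, 499, 487 and 455 in control, 556, 608, 518 and 539 in PS and 494, 511, 672 and 488 in AS mice. The 2 highest libraries were AS DEX mouse 60 and AS saline mouse 44, the same 2 libraries in which Adcyap1r1 was lowest. The log2 change after DEX over the mean of the phenotypes was 0.03 (95% interval -0.10 to 0.16, limma adjusted p = 0.867), and 0.03 with mice 44 and 60 left out.

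**Figure D3:**
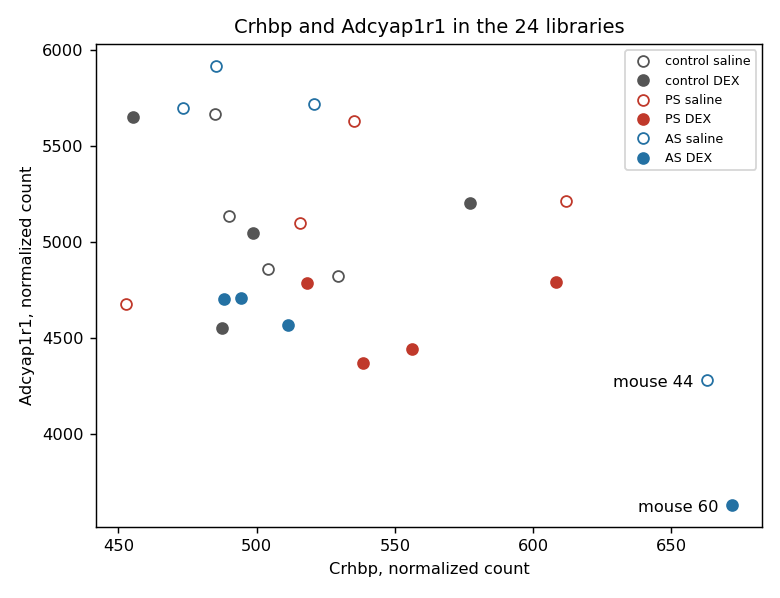
Normalized counts of Crhbp (x axis) and Adcyap1r1 (y axis) in the 24 libraries; neither axis starts at 0, colours give the phenotype, open circles are saline and filled circles DEX. AS saline mouse 44 (663 and 4283) and AS DEX mouse 60 (672 and 3633) lie apart at the lower right.

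Adcyap1, the gene of PACAP (chr17:93199017-93206537, plus strand, mm10), did not pass the test in any comparison either. Its normalized counts after saline were 1053, 1193, 1118 and 863 in control, 1005, 965, 1014 and 1009 in PS and 768, 1018, 832 and 1004 in AS mice. After DEX they were 691, 1151, 992 and 856 in control, 933, 1087, 826 and 931 in PS and 984, 1050, 869 and 818 in AS mice. The PS saline mice lay close together (965 to 1014), whereas control DEX mice ran from the lowest value of the 24, in mouse 101, to one of the highest, in mouse 108. The largest stress difference of any of the 5 genes after saline was that of Adcyap1 in AS mice, at -0.22 on the log2 scale (95% interval -0.49 to 0.04, limma adjusted p = 0.530).

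Chronic stress without DEX left no call among the 5 genes. By limma, 0 of 5 were called in PS against control mice, where 1.51% of all genes were called, and 0 of 5 in AS against control mice, where 0.156% were called. AS and PS mice were compared directly after saline with 0 of 5 called and 0% of all genes called. None of the 5 had an unadjusted p under 0.05 in these 3 comparisons, and edgeR and DESeq2 on the recovered reads also called none of them. The 95% intervals of Crhr1 were -0.27 to 0.10 in PS and -0.18 to 0.19 in AS mice, those of Adcyap1r1 were -0.19 to 0.21 and -0.13 to 0.27, and those of Crh were -0.39 to 0.32 and -0.36 to 0.36. A fall of Crhr1 as large as the one after DEX in any of the 3 phenotypes lay outside its intervals.

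Among DEX-treated mice, 0 of 5 genes were called in PS against control (0.199% of all genes called), 0 of 5 in AS against control (0.867%) and 0 of 5 in AS against PS (0%). Crhr1 and Adcyap1r1 had an unadjusted limma p under 0.05 in AS against control, at -0.19 and -0.22 on the log2 scale (adjusted p of 0.361 and 0.317). Crhr1 also did in AS against PS, at -0.24 (limma adjusted p = 0.9998). No gene did in PS against control. The DEX comparisons of a phenotype share their libraries with these and are not independent of them. The interaction of DEX with phenotype gave 0 of 5 in PS and control (0% of all genes), 0 of 5 in AS and control (0.348%) and 0 of 5 in AS and PS (0%), with 0, 1 and 1 genes at an unadjusted limma p under 0.05, and edgeR and DESeq2 called none of the 5 genes in these 6 comparisons. The moderated F test over the 6 groups called Crhr1 alone (limma adjusted p = 1.35e-06), with 14.8% of all genes called, and gave Adcyap1r1 an adjusted p of 0.192.

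Genes on the lists of related ligands and related receptors were read next. These lists were not confined to the families of CRH and PACAP. Of 10 related ligand genes 2 had a row. Vip, the peptide closest to PACAP and a marker of an interneuron class, rose in PS against control mice after saline (1814 ± 165 against 1409 ± 141 normalized counts, log2 change 0.37, limma adjusted p = 0.0735) and after DEX in control mice (1734 ± 108, log2 change 0.30, limma adjusted p = 0.0771). Its change after DEX was -0.15 in PS mice and 0.02 in AS mice, and neither passed. Avp, vasopressin, which acts with CRH on the pituitary, had low and uneven counts (2.17 to 192) and was not called.

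Of 11 genes on the list of related receptors, which includes the receptor partner Ramp2, 7 had a row. Over the mean of the phenotypes 2 of these rose and 1 fell after DEX, with a list median of -0.09. Mc4r, the melanocortin 4 receptor, rose by 1.20 (SE 0.26, limma adjusted p = 0.00244), from group means of 23.6 to 35.7 normalized counts after saline to 59.2 to 76.6 after DEX. Ramp2, a partner of the calcitonin receptor-like receptor that is strong in endothelium, rose by 0.31 (limma adjusted p = 0.00574), with 430 ± 44.7 and 711 ± 123 normalized counts in control mice but 523 ± 74.6 and 500.2 ± 85.5 in AS mice. This difference between AS and control mice was itself called, at -0.78 (limma adjusted p = 0.0954). Pth1r, the parathyroid hormone receptor, fell by 0.24 on the log2 scale (limma adjusted p = 0.0239). Vipr1 and Vipr2, which bind VIP and PACAP, Gipr and the oxytocin receptor Oxtr were not called. Vipr2 ran from 6.53 to 349 normalized counts.

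Downstream of the receptors, genes moved in both directions. Over 80 genes of the related ligands, related receptors, processing, cAMP and desensitization lists, 10 rose and 10 fell over the mean of the phenotypes after DEX, where 7.46% of all genes rose and 8.01% fell. Their median log2 change was 0.01 against -0.00 for all genes. Adcy8, a calcium-stimulated adenylyl cyclase, fell by 0.46 on the log2 scale (limma adjusted p = 0.000946), and Plcb4 rose by 0.18, as the 2 of 16 G protein and cyclase genes that were called. Of 18 protein kinase A and cAMP effector genes 2 rose and 4 fell, with a median of 0.02. Akap12, an anchor of protein kinase A, had -0.33, the regulatory subunit Prkar2b -0.19 and the cAMP-responsive exchange factor Rapgef2 0.21. Of 14 CREB family and cAMP-responsive genes 3 rose, Junb by 0.28 and Nr4a1 and Per1 by 0.21 each, and Per1 is also on the list of glucocorticoid receptor targets, of which 11 of 12 rose, led by Fkbp5 (2.06), Sult1a1 (1.38) and Tsc22d3 (1.06).

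Of 10 genes listed under receptor desensitization (receptor kinases, arrestins and RGS proteins, which act on G proteins), 1 rose and 4 fell, with a median log2 change of -0.10. The 4 were Grk5 and the RGS genes Rgs2, Rgs7 and Rgs14. Grk5, a receptor kinase, fell by 0.40 on the log2 scale over the mean of the phenotypes (SE 0.05, limma adjusted p = 4.45e-06). In PS mice its log2 change was -0.48, from 740 ± 33.1 to 529.7 ± 19.1 normalized counts. In AS mice it was -0.53, from 776 ± 58.5 to 539 ± 64.7 normalized counts. In control mice none of the 10 genes, Grk5 included, was called as lower. Over the mean of the phenotypes Grk3, a related kinase that acts on CRHR1, rose by 0.16 (limma adjusted p = 0.0236). Rgs14, which speeds the shut-off of G proteins, fell by 0.14 on the log2 scale. Of 13 genes of prohormone processing and secretory granules 1 rose, Chgb, a granule protein, by 0.11 (limma adjusted p = 0.0358). After saline, none of the 7 lists of the system had a call in AS against control mice, and Vip was their only call in PS against control mice.

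**Figure D4:**
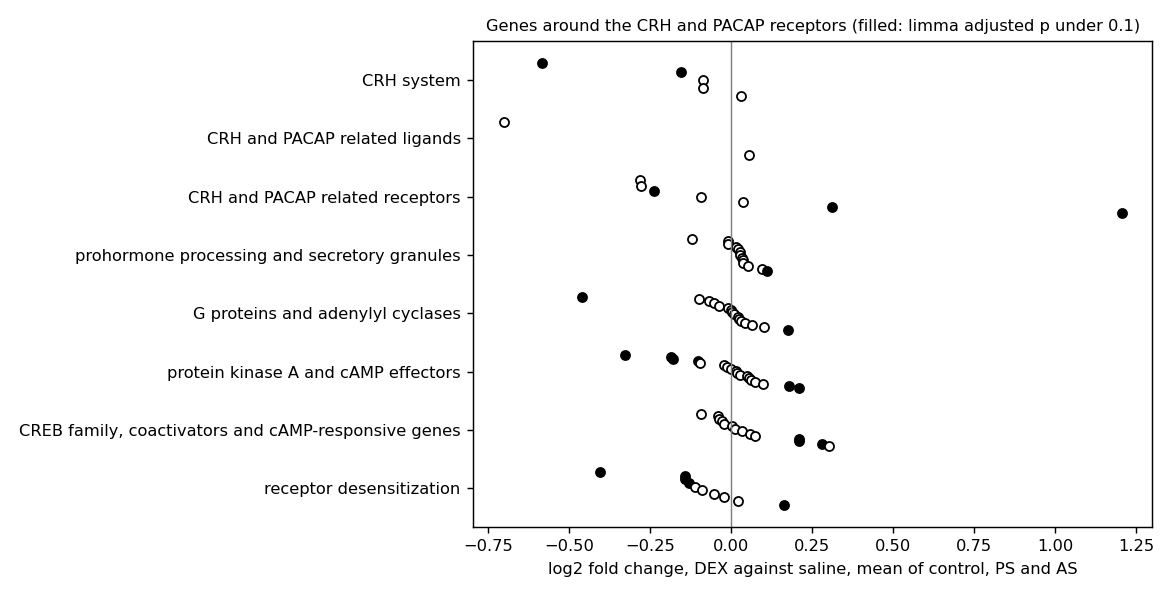
log2 fold change after DEX over the mean of control, PS and AS mice (x axis) for the 5 genes of the CRH system and the genes of 7 lists around them (rows, 1 point a gene); filled points have a limma adjusted p under 0.1. Crhr1 is the lowest filled point at -0.58 and Mc4r the highest at 1.20.

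The genes whose levels followed each of the 5 most closely within groups were taken from 12016 genes of at least 100 normalized counts, by Pearson r of log2 values centred on the group means over the 24 libraries, which share depth and dissection. They were Prpsap1 (0.78), Marcksl1 (0.78) and Ppp2r3d (0.76) for Crhr1, and Pitpnm3 (0.93), Adarb2 (0.91) and Iqsec3 (0.91) for Adcyap1r1. For Crh they were Fads1 (0.80), Psat1 (0.79) and Ryk (0.78), for Crhbp they were Malat1 (0.84), Pinx1 (0.83) and Ube2d1 (0.82), and for Adcyap1 they included Pamr1 (0.82) and Atp6v1b2 (0.80). No gene of the 5 was among the 3 closest to another of them by construction, since the 5 were left out. AS saline mouse 44 and AS DEX mouse 60, which stood apart in Crhbp or Adcyap1r1, were kept in all of these r values.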

How the data were processed

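The authors trimmed reads of strand-specific polyadenylated libraries with fastp 0.20.1, aligned them to mm10 (GRCm38) with HISAT2 2.2.1, counted them per GENCODE gene with featureCounts (Subread 2.0) and divided them by 1 DESeq2 size factor per library (DESeq2 1.36.0). These normalized counts, a signal that the authors deposited, were used as they stand. The deposited tables of the authors' own comparisons (fold changes and p-values) gave gene positions only. Dividing each library by what a single read is worth gave whole reads for 100% of values, within 0.01 read, and these recovered reads gave the depth and the count tests. This depth, 21121869 to 59439645 reads, sets the precision of each value.

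The values were tested as log2(normalized count + 1) with limma 3.58.1 (R 4.3.3), with 1 mean for each of 6 groups over 24 libraries, a trended moderated variance and Benjamini-Hochberg adjustment over 14074 genes, so that fold changes of low genes are understated. A gene was called at an adjusted p under 0.1, and the tests were two-sided. Groups came from the sample labels, and each library is 1 mouse. The fit was tested on simulated data. Alternatives were a pseudocount of 8, filters on low values (a mean of 100, or 10 reads in every library), quantile normalization, only the groups compared, library size as a covariate, edgeR 4.0.16 and DESeq2 1.42.0 on the recovered reads, each library left out and, added after seeing the data, TMM normalization and leaving out 2 AS libraries. The genes, lists and tests were chosen with earlier results of these data known. All genes found by symbol were named, with those of the related ligand and receptor lists, up to 3 called genes of each other list (by size of the log2 change), the gene with the highest mean where none was called, and the 3 genes most like each member; a few genes that this rule names are not reported here. Lengths are exon unions of GENCODE vM21, and promoters are RefSeq windows on GRCm38.p6.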

Additional observations from a re-analysis of the deposited data

Results flagged for a closer look

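In 3 of 30 groups of 4 mice (5 genes in 6 groups), 1 library lay farther from the others than Dixon's 95% criterion allows for 4 samples; chance gives about 1 such group in 20. Crhbp in AS DEX mouse 60 was high, at 672 normalized counts against 488 to 511 in the other mice of its group, a gap of 0.874 of the range. Adcyap1r1 in AS saline mouse 44 was low, at 4283 normalized counts against 5698 to 5917 in the others, and in AS DEX mouse 60 it was low, at 3633 against 4568 to 4712; the gap was 0.866 of the range in both. Crhr1 in the same 2 mice was 849 and 606 normalized counts, inside the range of its treatment over the 3 phenotypes. Within their own groups these were the lowest AS saline value (971 to 1038 in the others) and the highest AS DEX value (501 to 602 in the others).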

How the results depend on the processing

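No paired analysis was possible because mouse numbers do not recur between groups. The fall of Crhr1 after DEX passed the threshold in each phenotype and over their mean under every alternative run, and Crh, Crhbp and Adcyap1 were called under none. The number of genes of the 5 called in AS mice after DEX was 1 in a fit of only the groups compared and 1 to 2 with 1 library left out, and over the mean of the phenotypes it was 1 to 2 with 1 library left out, in each case through Adcyap1r1. The interaction of AS and control mice gave 0 to 1 with 1 library left out, 1 without AS saline mouse 44. The test for any difference among the 6 groups called 2 genes with quantile normalization, 2 with AS saline mouse 44 and AS DEX mouse 60 left out together, and 1 to 2 with 1 library left out, 2 without mouse 44; the cause was not tested. The sign differed from the reported one in 64 of 1560 values with 1 library left out (-0.13 to 0.13) and in 20 of 645 others (-0.09 to 0.05), none of them called.

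Over all genes, calls depended more on the setting. PS against control after saline had 213, with 57 without PS saline mouse 2, 431 by DESeq2 and 573 without mice 44 and 60; AS against control after saline had 22, with 5 among genes of a mean of at least 100 and 99 by DESeq2. AS after DEX had 1234, with 673 without AS saline mouse 8 and 1985 without AS saline mouse 44. After DEX, PS against control had 28, with 0 in a fit of only the groups compared and 465 without mice 44 and 60, and AS against control had 122, with 0 with library size as a covariate and 417 by DESeq2. The interaction of AS and control had 49, with 1 among genes of a mean of at least 100 and 686 without AS saline mouse 44. Crh, which had 96 reads in its lowest library, had the widest intervals of the 5 genes. Its standard deviation within groups was 0.26 in log2 units, against a median of 0.19 over 876 genes of like level. The part of low counts in this spread was not tested.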
